A study of Homo sapiens and Mus musculus with 100 samples.

Results

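HepG2, a human liver cancer cell line that still makes many hepatocyte proteins, was kept in medium without vitamin B2 and sampled on day 3, day 6, day 9 and day 12. These are the 12 libraries labelled B2_minus in the HepG2 time course, 3 per day, of 100 samples in the whole series. They were taken by their labels alone, and days 6, 9 and 12 were each set against day 3. The time course also holds 12 libraries of control HepG2, again 3 per day, which served to show where the deprived cells changed otherwise than cells kept for as long with the vitamin. No group of this time course carries a drug, a guide RNA or a transgene according to the labels, which name only the medium, the day and the cell line. Neither the make-up of the deprived medium nor the day of its first use was stated, so day 3 is a starting point that is itself labelled deprived. Within the deprived libraries, time without the vitamin and time in culture pass together and cannot be told apart.

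Vitamin B2, or riboflavin, is taken up by the SLC52A carriers and made into the cofactor FMN by riboflavin kinase (RFK) and then into FAD by FAD synthase (FLAD1). Enzymes that carry these cofactors pass electrons in the respiratory chain, in the first step of fatty acid oxidation, in several steps of cholesterol synthesis and in the reduction of glutathione and thioredoxin. The series asks how hepatic cells sense the vitamin, with AHR, a ligand-activated transcription factor that switches on CYP1A1, in its title.

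Messenger RNA was measured from the poly(A) end with a 3′ kit, and the values are TPM, reads per length of transcript, scaled to a fixed total per library. Levels were therefore compared between libraries, never between genes. The deprived libraries held between 6828000 and 11040000 recovered reads. All 10 hepatocyte markers were above 1 TPM in deprived cells, and the fibroblast and endothelial lists had 0 of 8 and 0 of 6 markers at 1 TPM or more in 3 deprived libraries, with LUM and KDR at 0 throughout. Among the immune markers CD68, CD14 and LYZ reached 1 TPM. LYZ, which encodes lysozyme, had 395 to 496 TPM in the deprived libraries. Ribosomal protein genes took 11.7% to 12.1% of the listed TPM on day 3 and 16.3% to 16.6% on day 12 in deprived cells, and the controls of those days had 11.4% to 11.7% and 15.9% to 16.6%.

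The deprived libraries separated by day and the replicates of each day lay together. The first principal component held 51% of the variance and put the days in order, with scores of -28.97 to -26.76 on day 3, -15.23 to -12.65 on day 6, 12.31 to 15.6 on day 9 and 27.63 to 27.7 on day 12. The second held 8.7% and set day 6 apart from the other days. Neighbouring days did not overlap on the first component.

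**Figure D1:**
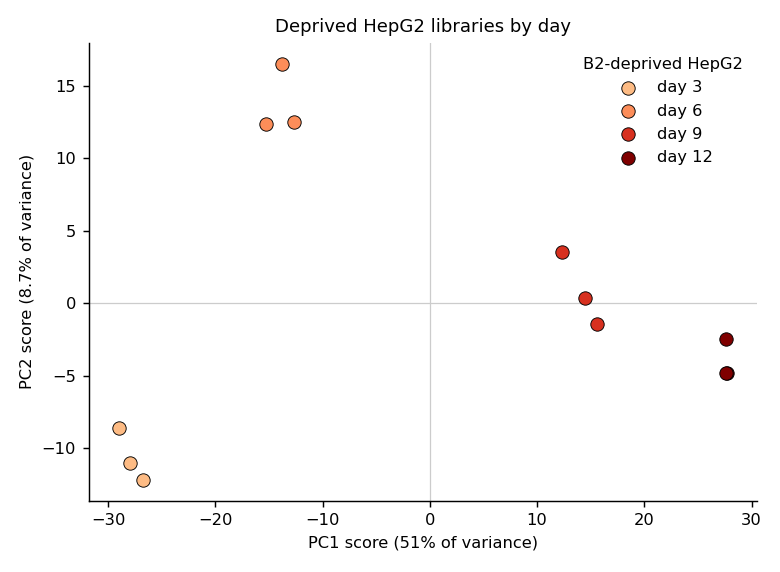
Principal component scores of the 12 deprived HepG2 libraries, from log2(TPM + 1) of the genes tested. Each point is a library coloured by day, with the first component (51% of the variance) on the x axis and the second (8.7%) on the y axis. Days 3, 6, 9 and 12 run from left to right, and the 3 day 6 libraries are the highest on the y axis.

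Of the 3 steps between neighbouring days, day 6 to day 9 had the most calls. Of 12488 genes tested, limma with Benjamini-Hochberg adjustment called 664 higher and 1049 lower on day 6 than on day 3, which is 5.32% and 8.4% of all genes. Without day 3 replicate 2 the higher genes came to 441, and without day 3 replicate 1 the lower genes came to 684. For day 9 the calls were 1164 higher and 4128 lower (9.32% and 33.1%). For day 12 they were 1801 higher and 4405 lower (14.4% and 35.3%). Between adjacent days, 544 genes were higher and 2667 lower on day 9 than on day 6 (4.36% and 21.4%), and 397 were higher and 554 lower on day 12 than on day 9 (3.18% and 4.44%). Leaving out either day 9 replicate 1 or 2, or any single day 12 library, brought those 397 higher genes to between 204 and 259, and without day 12 replicate 2 the lower genes came to 354. The total of 951 came to 611 without day 9 replicate 1, 558 without day 12 replicate 2 and 601 without day 12 replicate 3. Few changes were large. By day 12, 193 genes were called and at least doubled (1.55%) and 440 were called and at least halved (3.52%).

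The excess of lower genes depended on how the libraries were scaled. The median gene moved by -0.03 on the log2 scale on day 6, -0.13 on day 9 and -0.12 on day 12, so a small fall is also what the typical gene shows. When each library was scaled to the same median, the calls for day 6 were 1036 higher and 703 lower. Day 9 then had 2479 higher and 2105 lower, and day 12 had 3169 higher and 2667 lower. Quantile normalization gave 797 higher and 790 lower for day 6, 2100 and 2374 for day 9, and 2884 and 2879 for day 12. From day 6 to day 9 median scaling gave 1149 higher and 1264 lower, and quantile normalization 1065 and 1336. Voom, a count-based weighting run on recovered reads, gave 1897 higher and 2993 lower for day 9. It gave 2388 higher and 3997 lower for day 12, and 986 higher and 1610 lower from day 6 to day 9. The medians of gene lists below are to be read against these medians of all genes. Their counts on day 12 are to be read against the 14.4% higher and 35.3% lower over all genes. Counts with median scaling are to be read against 3169 higher and 2667 lower of all 12488 genes.

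Genes of cholesterol synthesis fell first and together. Of the 24 tested, 21 were called lower on day 6, 23 on day 9 and 21 on day 12, and 0 were called higher at any of these days. Their median log2 fold change was -0.79, -0.89 and -0.87, so the fall was already in place on day 6 and the list then moved little. With median scaling 19 were lower and 0 higher on day 12. The control cells had medians of 0.01, 0.15 and -0.19 on those days. The deprived change on day 12 was below the control change for 18 members and above it for 0 (13.9% and 23.8% over all genes). FDPS makes farnesyl diphosphate, a branch point of the pathway. It had 55.3, 55.5 and 55.6 TPM on day 3, 26.9, 22.6 and 24.9 on day 6, 22.6, 20.0 and 23.2 on day 9, and 22.9, 19.3 and 20.0 on day 12. All later libraries lay below every day 3 library and overlapped with each other. The log2 fold change on day 12 was -1.38 ± 0.10 (SE; limma, adjusted p = 1.7e-10). LSS, the cyclase that makes lanosterol, went on falling, with 19.0 to 21.0 TPM on day 3, 9.22 to 9.50 on day 6, 7.55 to 8.04 on day 9 and 5.96 to 6.69 on day 12. MVK, mevalonate kinase, fell likewise, by 1.49 ± 0.08 on the log2 scale on day 12 (SE; limma, adjusted p = 1.3e-12).

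One enzyme of that pathway turned back. MSMO1, which removes methyl groups from lanosterol derivatives, had 98.3, 95.9 and 89.1 TPM on day 3, 58.2, 55.5 and 53.3 on day 6, 69.4, 66.2 and 65.9 on day 9, and 80.6, 84.8 and 84.9 on day 12. Its 4 days did not overlap, and day 12 stayed below day 3 by 0.18 on the log2 scale (limma, adjusted p = 0.0056), a call that median scaling did not give (adjusted p = 0.804). By motif, 1 of the 17 list members with a promoter in the RefSeq table (GRCh38.p14) held the sterol element TCACNCCAC on either strand within 250 bases before the start site, and so did 0.883% of 35116 promoters.

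Enzymes that make and desaturate fatty acids fell alongside. Of 20 tested, 10 were lower and 2 higher on day 6, 10 and 2 on day 9, and 12 and 4 on day 12, with medians of -0.32, -0.39 and -0.44. FADS2, a fatty acid desaturase, fell at each interval, with 19.9, 20.7 and 21.1 TPM on day 3, 9.94, 9.40 and 9.27 on day 6, 6.27, 5.87 and 5.57 on day 9, and 4.60, 4.96 and 4.56 on day 12. No day overlapped with another. At day 12 the log2 fold change was -1.92 ± 0.06 (SE; limma, adjusted p = 6.5e-16). FADS1, the partner desaturase, had 43.2 to 47.6 TPM on day 3 and 19.8 to 20.3 on day 12. ACLY, which supplies cytosolic acetyl-CoA, had 61.1 to 66.9 TPM on day 3 and 26.2 to 27.4 on day 12. SCD, the stearoyl-CoA desaturase, dropped once and held, at 99.7 to 109 TPM on day 3, 47.6 to 48.6 on day 6, 45.7 to 51.4 on day 9 and 49.7 to 51.9 on day 12. The 4 that rose by day 12 were ELOVL5, ACSL4, GPAM and DGAT1, named here after their values were seen.

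**Figure D2:**
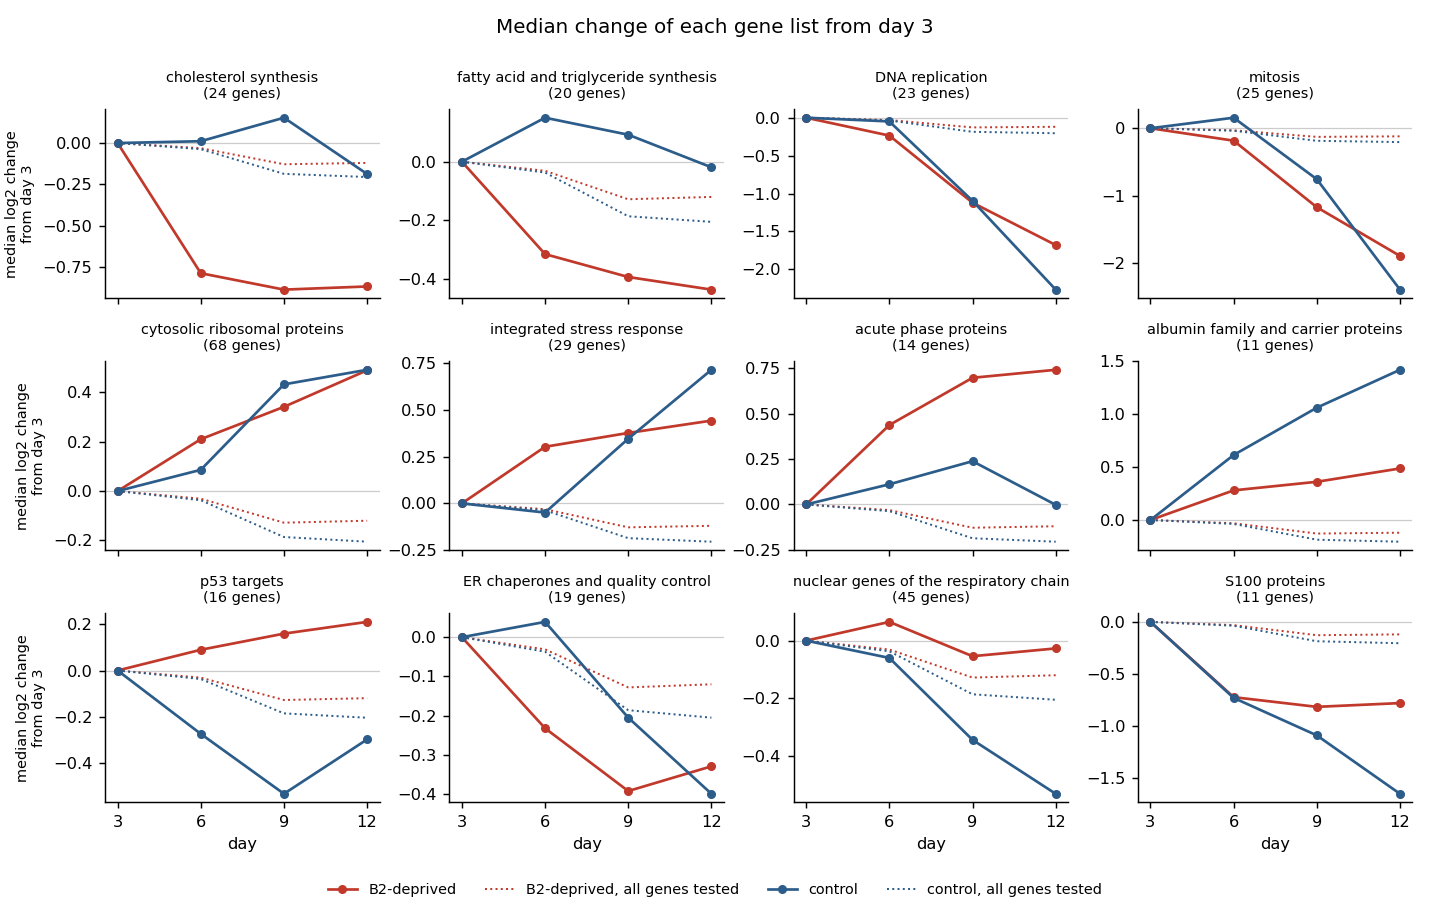
Median log2 fold change from day 3 for 12 gene lists, on days 3, 6, 9 and 12 (x axis), in deprived cells (red) and controls (blue), with the median of all 12488 genes tested as dotted lines. In deprived cells the cholesterol synthesis list is at -0.79 by day 6 and -0.87 on day 12, while DNA replication moves from -0.24 on day 6 to -1.68 on day 12. Scales differ between panels.

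Many chaperones of the endoplasmic reticulum were also lower by day 6, and the list median was lower again on day 9. Of 19 tested, 14 were lower on day 6, 15 on day 9 and 14 on day 12, with medians of -0.23, -0.39 and -0.33, and 0, 1 and 1 were higher. The 1 that rose by day 12 was HERPUD1, named after its value was seen. Median scaling left 10 lower and 2 higher on day 12. MANF, a secreted protein of this compartment, had 146 to 151 TPM on day 3, 102 to 121 on day 6, 71.8 to 72.9 on day 9 and 65.2 to 70.6 on day 12. CRELD2, a related secreted protein, fell by 1.36 ± 0.10 on the log2 scale by day 12 (SE; limma, adjusted p = 8.7e-11). PDIA4, a disulfide isomerase, and SDF2L1 fell by 0.95 each. The control medians were 0.04 on day 6, -0.21 on day 9 and -0.40 on day 12. On day 12 the deprived change was above the control change for 8 members and below it for 3 (23.8% and 13.9% over all genes).

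S100 proteins, small calcium-binding proteins, split in 2 ways by day 6 and stayed split. Of 11 tested, 8 fell and 2 rose on day 6, on day 9 and on day 12, also with median scaling. Set against controls, the deprived change on day 12 was above for 6 members and below for 0 (23.8% and 13.9% over all genes). S100A4 had 45.4, 45.4 and 51.3 TPM on day 3, 19.7, 22.6 and 16.7 on day 6, 14.5, 13.8 and 12.7 on day 9, and 12.7, 10.7 and 12.9 on day 12, with no overlap between day 3 and any later day. S100A6 had 570 to 638 TPM on day 3 and 168 to 184 on day 12. S100A10 had 121 to 124 TPM on day 3 and 42.5 to 48.7 on day 12. S100P went the other way, at 471 to 515 TPM on day 3, 620 to 688 on day 6, 693 to 829 on day 9 and 831 to 902 on day 12 (log2 fold change 0.80 ± 0.09 (SE) on day 12; limma, adjusted p = 2.8e-07).

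Actin-binding proteins, tubulins and keratins also fell, 16 of 24 tested on day 12 (15 with median scaling). The 2 that rose were ACTB and LMNA, and 1 was called without day 3 replicate 2 or without any single day 12 library. On day 12 the deprived change was above the control change for 16 of the 24 and below it for 1. Over all genes 23.8% were above and 13.9% below. COTL1, which binds actin filaments, had 15.6 to 16.0 TPM on day 3, 6.62 to 8.79 on day 6, 4.01 to 4.28 on day 9 and 1.94 to 2.62 on day 12. TMSB10, which binds actin monomers, fell early, with 1278 to 1325 TPM on day 3, 773 to 794 on day 6 and 568 to 616 on day 12. The tubulins TUBB and TUBA1B were not called on day 6 and fell after it, to 98.8 to 100.0 and 93.7 to 99.8 TPM on day 12, against 233 to 250 and 225 to 235 TPM on day 3. TUBB2B, another tubulin, was among the 5 genes that fell most by day 9, with 31.7 to 39.6 TPM on day 3 and 8.73 to 12.4 on day 9. PLA2G2A, a secreted phospholipase, was in that group as well, at 13.7 to 16.0 TPM on day 3, 4.70 to 6.73 on day 6, 2.79 to 3.82 on day 9 and 4.15 to 4.50 on day 12.

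Proliferation genes fell later than the lipid genes, and by more. At day 6 the median of 23 DNA replication genes was -0.24 and that of 25 mitosis genes was -0.18. On that day 6 and 4 of them were lower and 0 higher (8.4% and 5.32% over all genes). The 6 came to as few as 3, and the 4 to as few as 1, when single libraries were left out. At day 9 22 of 23 and 25 of 25 were lower, with medians of -1.12 and -1.17, and on day 12 all 23 and all 25 were lower, with medians of -1.68 and -1.89. Median scaling left all 23 and all 25 lower on day 12. CDC6, which loads the replicative helicase, had 15.7, 15.8 and 16.0 TPM on day 3, 11.5, 10.2 and 12.7 on day 6, 5.52, 4.80 and 4.28 on day 9, and 1.91, 2.07 and 2.35 on day 12. No day overlapped with another, and the log2 fold change on day 12 was -2.44 ± 0.10 (SE; limma, adjusted p = 7.7e-15). TK1, thymidine kinase, had 31.9 to 33.8 TPM on day 3, 25.4 to 31.2 on day 6, 11.6 to 13.0 on day 9 and 5.08 to 6.72 on day 12. RRM2, a subunit of ribonucleotide reductase, and GINS2, part of the helicase, fell by 2.22 and 2.21 on the log2 scale on day 12.

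Among mitotic genes, the kinases AURKB and PLK1 were not called on day 6 and then fell. AURKB had 51.3 to 58.7 TPM on day 3, 50.5 to 56.6 on day 6, 19.4 to 23.1 on day 9 and 9.95 to 11.5 on day 12. PLK1 fell to 9.49 to 11.6 TPM on day 12, against 52.8 to 54.7 on day 3. MYBL2, a transcription factor of the cell cycle, had 27.4 to 32.4 TPM on day 6 and 4.88 to 6.18 on day 12. ZWINT, SPC25 and CENPM, which act at the kinetochore or centromere, and DLGAP5, which binds spindle microtubules, were among the 12 genes that fell most by day 12, by 2.28 to 2.37 on the log2 scale. MKI67, the Ki-67 gene, had 12.6 to 14.5 TPM on day 3 and 2.08 to 2.29 on day 12 (limma, adjusted p = 4.5e-14). The control medians on day 12 were -2.27 and -2.39. The deprived change on that day was above the control change for 16 of 23 replication genes and 21 of 25 mitosis genes, and below it for 0. The shares over all genes were 23.8% above and 13.9% below. TK1 came to 5.08 to 6.72 TPM in deprived cells, against 1.19 to 2.68 TPM in controls.

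Among genes of at least 10 TPM, the largest log2(TPM + 1) rise by day 12 was that of IGFBP1, a secreted binding protein of insulin-like growth factors whose transcription insulin represses. It had 14.1, 16.5 and 13.2 TPM on day 3, 28.6, 32.3 and 38.6 on day 6, 95.5, 123 and 128 on day 9, and 239, 266 and 259 on day 12. Each day lay above the one before with no overlap, and the log2 fold change on day 12 was 4.04 ± 0.18 (SE; limma, adjusted p = 1.4e-12). Controls rose more, from a lower day 3 level: IGFBP1 averaged 255 ± 13.9 TPM in deprived cells and 319 ± 69.0 TPM in controls on day 12 (SD, n = 3 each). TXNIP, an inhibitor of thioredoxin, had 9.08 to 11.1 TPM on day 3, 16.6 to 21.9 on day 6, 34.5 to 42.7 on day 9 and 58.3 to 68.6 on day 12. ANGPTL8, a regulator of lipoprotein lipase, had 17.7 to 18.3 TPM on day 3 and 76.6 to 82.7 on day 12. LEAP2, an antagonist of the ghrelin receptor, had 10.5 to 14.9 TPM on day 3 and 56.1 to 62.5 on day 12.

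Of 5 genes of gluconeogenesis and insulin repression tested, 4 rose by day 12 (median 0.67) and 1 fell, the last not with median scaling. The deprived change on day 12 was above the control change for 0 members and below it for 3 (23.8% and 13.9% over all genes). G6PC, glucose-6-phosphatase, lay below the level set for named genes and is given because its values were seen: 0.06 to 0.174 TPM on day 3, 0.52 to 0.694 on day 6, 1.66 to 1.99 on day 9 and 3.85 to 4.47 on day 12.

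A further group rose in deprived cells. For GSTA2 and CPT1A the deprived change on day 12 was above the control change, by 2.89 and 1.87 on the log2 scale. CSTA, a cysteine protease inhibitor, had 8.21, 8.35 and 6.59 TPM on day 3, 26.3, 25.8 and 29.4 on day 6, 62.9, 68.5 and 63.1 on day 9, and 78.6, 85.1 and 81.3 on day 12. The days did not overlap, and CSTA averaged 81.7 ± 3.26 TPM in deprived cells and 12.1 ± 1.57 TPM in controls on day 12 (SD, n = 3 each). GSTA1, a glutathione transferase, had 25.0, 33.1 and 32.8 TPM on day 3, 106, 106 and 96.7 on day 6, 144, 137 and 134 on day 9, and 156, 140 and 145 on day 12. Most of its rise was over by day 6 (log2 fold change 1.74 ± 0.11 (SE) on day 6 and 2.25 ± 0.11 on day 12; limma, adjusted p = 4.1e-10 and 2.8e-13). GSTA2, a near-identical copy that can share reads with GSTA1, had 5.57 to 7.12 TPM on day 3 and 29.8 to 33.6 on day 12. LCN15, a lipocalin, had 1.76 to 2.38 TPM on day 3 and 14.5 to 16.5 on day 12. CPT1A, the carrier step of mitochondrial fatty acid oxidation, had 15.7 to 18.0 TPM on day 3, 19.9 to 21.1 on day 6, 23.2 to 26.0 on day 9 and 35.6 to 39.5 on day 12. The list of PPARA targets and fat oxidation that holds it did not move as a whole, with 5 of 17 higher and 4 lower on day 12, and 8 and 2 with median scaling.

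**Figure D3:**
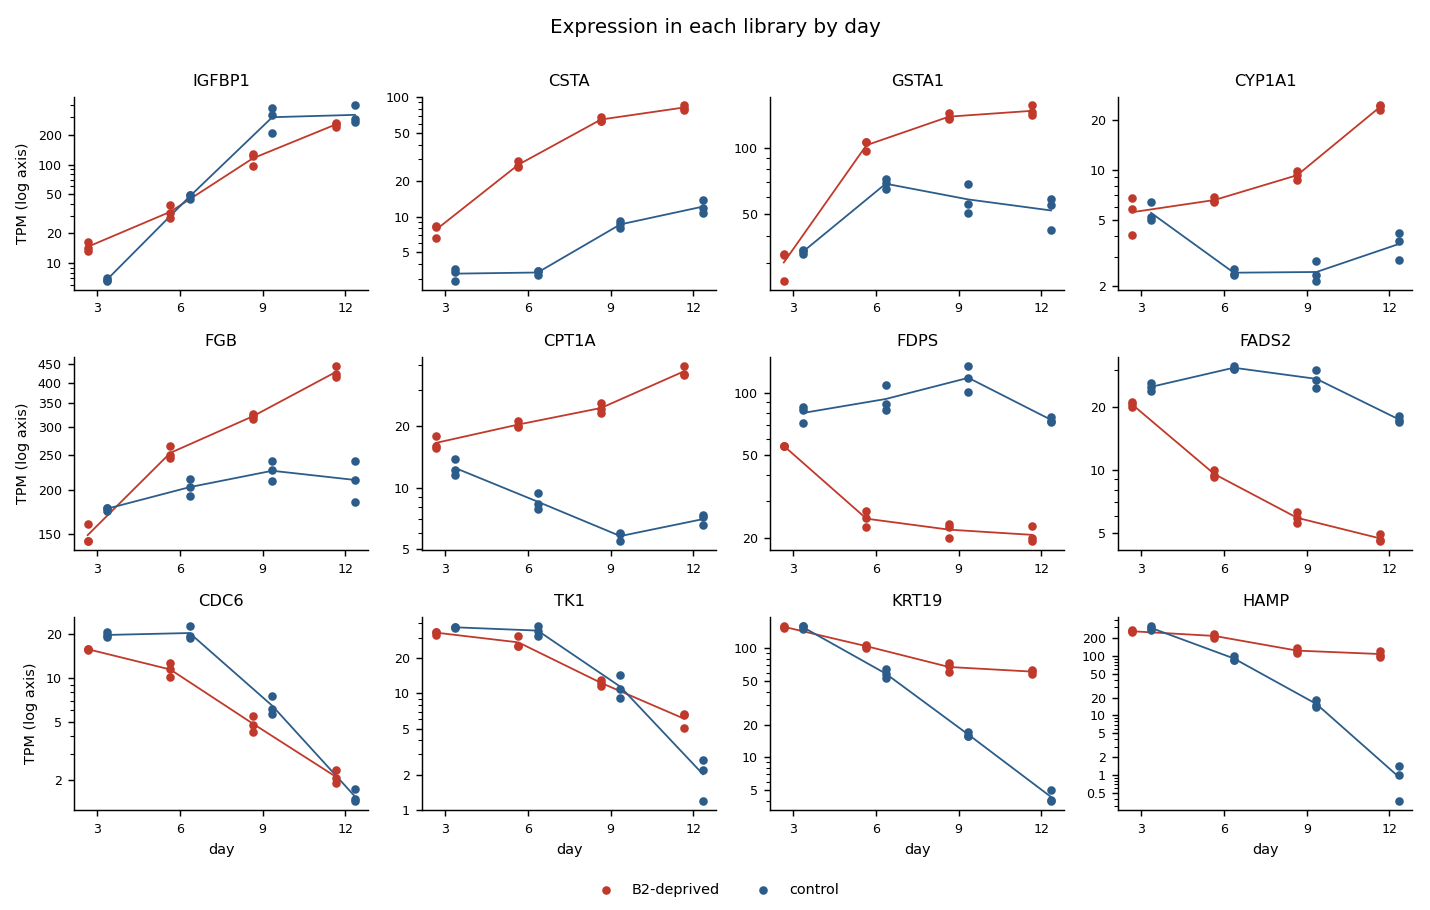
TPM of 12 genes in each of the 24 libraries (log axis) on days 3, 6, 9 and 12, with deprived libraries in red, set slightly left, and controls in blue, and lines through the group means (n = 3 each). IGFBP1 climbs at each day, FDPS drops once between day 3 and day 6, and CYP1A1 is highest in the day 12 deprived libraries, at 23.0 to 24.4 TPM. HAMP and KRT19 fall much less in deprived libraries than in controls.

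Among AhR-linked genes, CYP1A1 rose mainly in the last step. Of 6 AhR-linked genes tested (AHR, its partner ARNT, CYP1A1, TIPARP, UGT1A6 and SLC7A5), 5 were higher on day 12, 6 with median scaling, and 0 were lower. The list's median was 0.25 on day 6, 0.33 on day 9 and 0.44 on day 12. In controls 3 were higher and 1 lower on day 12. The deprived change was above the control change for 4 members and below it for 1 (23.8% and 13.9% over all genes). With median scaling 2 were above and 1 below, against 2522 and 2107 of all 12488 genes. Without control day 12 replicate 2 the counts were also 2 and 1. SLC7A5 is in the list of the integrated stress response as well. CYP1A1, a monooxygenase and the standard readout of AhR, had 6.75, 4.05 and 5.82 TPM on day 3, 6.51, 6.35 and 6.83 on day 6, 8.64, 9.32 and 9.82 on day 9, and 23.0, 24.0 and 24.4 on day 12. Days 3 and 6 overlapped, and days 9 and 12 each stood clear. The step from day 9 to day 12 was 1.27 ± 0.12 on the log2 scale (SE; limma, adjusted p = 5.6e-07), the highest of any gene of at least 10 TPM over that interval. CDA, cytidine deaminase, was also among the 4 highest, with 5.97 to 8.77 TPM on day 3, 7.72 to 8.11 on day 9 and 13.3 to 14.7 on day 12. AHR itself had 4.23 to 4.97 TPM on day 3 and 7.31 to 7.79 on day 12 (log2 fold change 0.59 ± 0.08 (SE); limma, adjusted p = 1.3e-06). TIPARP, an AhR target that modifies the receptor, had 4.90 to 5.71 TPM on day 3 and 6.68 to 6.90 on day 12.

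The promoter of CYP1A1 is shown because that gene made the steepest late rise. It is the 250 bases before the start site from RefSeq (GRCh38.p14, chr15:74725529-74725778, minus strand, written 5′ to 3′ along the gene), with the 1 match to the AhR core GCGTG in capitals, 57 bases before the start site.
CYP1A1: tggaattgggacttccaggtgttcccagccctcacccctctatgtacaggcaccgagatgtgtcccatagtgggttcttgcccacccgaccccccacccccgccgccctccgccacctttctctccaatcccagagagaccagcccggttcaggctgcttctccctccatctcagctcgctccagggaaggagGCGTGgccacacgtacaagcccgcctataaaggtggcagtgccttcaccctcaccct
Searched on both strands, the core was in 4 of the 6 AhR-linked promoters and in 32.2% of 35116 promoters. The match overlaps none of the other motifs searched.

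NRF2 targets, antioxidant genes that include several flavoenzymes, split on day 12 with 8 of 21 higher and 5 lower (median 0.06), and 14 and 3 with median scaling. FTL, the ferritin light chain, had 3899 to 4251 TPM on day 3, 4403 to 4729 on day 6, 5325 to 5586 on day 9 and 6198 to 6405 on day 12. SLC7A11, the cystine carrier, had 12.7 to 14.1 TPM on day 3 and 24.5 to 25.0 on day 12. OSGIN1 and AKR1B10, a growth regulator and an aldo-keto reductase, rose by 0.74 and 0.60 on the log2 scale. NQO1, an FAD enzyme, had 308 to 322 TPM on day 3 and 266 to 272 on day 12, a fall that median scaling did not call (adjusted p = 0.442). TXNRD1, the FAD-dependent thioredoxin reductase, stepped down by day 6, with 51.9 to 59.2 TPM on day 3, 33.6 to 37.6 on day 6 and 36.7 to 37.9 on day 12. Set against controls, the deprived change on day 12 was above for 15 members and below for 3 (23.8% and 13.9% over all genes). In controls 0 members were higher and 16 lower already on day 6 (median -0.37). The antioxidant core TGACNNNGC was found in 3 of 15 of these promoters and in 10.9% of all promoters.

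Genes of the integrated stress response, which ATF4 drives when amino acids are short or translation is checked, rose early and held. Of 29 tested, 19 were higher on day 6, 19 on day 9 and 20 on day 12, with medians of 0.30, 0.38 and 0.44, and 0, 1 and 1 were lower. With median scaling 26 were higher and 1 lower on day 12. ASNS, asparagine synthetase, had 16.5, 19.6 and 16.4 TPM on day 3, 30.5, 35.4 and 32.9 on day 6, 40.2, 43.8 and 43.8 on day 9, and 45.3, 49.2 and 49.0 on day 12. Its 4 days did not overlap (log2 fold change 1.40 ± 0.08 (SE) on day 12; limma, adjusted p = 3.5e-12). GDF15, a secreted stress hormone, rose later, with 731 to 755 TPM on day 3, 844 to 964 on day 6, 1265 to 1562 on day 9 and 1752 to 2125 on day 12. CTH, which makes cysteine, had 4.08 to 6.81 TPM on day 3 and 11.6 to 12.5 on day 12. ATF3, a stress transcription factor, had 4.06 to 4.79 TPM on day 3 and 9.53 to 11.3 on day 12. In controls the median was -0.05 on day 6, 0.35 on day 9 and 0.72 on day 12. The deprived change on day 12 was above the control change for 4 members and below it for 15 (23.8% and 13.9% over all genes).

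The ASNS promoter is shown because that gene rose most in the list, in the 250 bases before the start site (RefSeq, GRCh38.p14, chr7:97872409-97872658, minus strand, 5′ to 3′ along the gene). Capitals mark the 1 match to the amino acid response core TGATGNAA, 68 bases before the start site.
ASNS: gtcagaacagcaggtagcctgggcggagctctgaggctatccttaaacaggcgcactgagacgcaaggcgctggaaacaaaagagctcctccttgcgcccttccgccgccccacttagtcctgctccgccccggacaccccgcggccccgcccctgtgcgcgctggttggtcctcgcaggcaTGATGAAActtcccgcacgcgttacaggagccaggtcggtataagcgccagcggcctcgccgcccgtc
The core was in 3 of 23 promoters of the list and in 3.14% of all promoters, on either strand. In ASNS it overlaps none of the other motifs searched.

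Targets of p53, the transcription factor that answers DNA damage and other stress, rose with time: 8 of 16 were higher and 0 lower on day 12 (median 0.21), and 11 and 0 with median scaling. MDM2, which degrades p53, had 23.0 to 28.1 TPM on day 3, 29.8 to 32.7 on day 6, 38.1 to 41.3 on day 9 and 47.1 to 51.7 on day 12. RRM2B, the p53-regulated subunit of ribonucleotide reductase, was not called on day 6 and had 14.2, 13.9 and 15.3 TPM on day 12, against 6.22 to 7.05 TPM on day 3. ZMAT3, an RNA-binding target, rose by 0.46 ± 0.07 (SE; limma, adjusted p = 6.9e-06). GDF15 is in this list as well. The deprived change on day 12 was above the control change for 11 members and below it for 0 (23.8% and 13.9% over all genes).

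Genes for riboflavin uptake and cofactor synthesis moved little. Of 7 tested, 3 were higher (RFK, SLC25A32 and ENPP3) and 2 lower (SLC52A2 and ACP1) on day 12, with a median of -0.01, and 3 and 1 with median scaling. RFK had 18.0, 18.6 and 16.1 TPM on day 3, 20.2, 20.6 and 20.4 on day 6, 20.6, 20.4 and 21.1 on day 9, and 19.5, 22.7 and 22.2 on day 12. Day 3 lay below all later libraries, and days 6, 9 and 12 overlapped (log2 fold change 0.27 ± 0.08 (SE) on day 12; limma, adjusted p = 0.0067). FLAD1 had 3.07 to 3.72 TPM on day 3 and 2.93 to 3.45 on day 12, which overlap. SLC52A2, the carrier of this family measured here, had 16.8 to 19.5 TPM on day 3 and 14.1 to 15.5 on day 12, and median scaling did not call that difference (adjusted p = 0.212). SLC52A3 did not pass the filter on low values. ENPP3, an ectoenzyme that can split FAD, had the largest change of the list and was chosen after its values were seen, with 3.52 to 3.85 TPM on day 3, 6.30 to 6.40 on day 6 and 6.52 to 7.43 on day 12.

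Enzymes that use the cofactors gave no common direction. Of 32 other FAD and FMN enzymes tested, 7 were higher and 14 lower on day 12 (median -0.13 against -0.12 for all genes), and 10 and 8 with median scaling. POR, which feeds electrons to cytochromes P450, had 56.4 to 66.3 TPM on day 3 and 95.5 to 105 on day 12. CYB5R3, which reduces cytochrome b5, had 84.5 to 89.6 TPM on day 3 and 134 to 137 on day 12. RETSAT, a retinol saturase, fell by 0.61 ± 0.07 on the log2 scale (SE; limma, adjusted p = 7.8e-08). Among 14 acyl-CoA dehydrogenases and electron transfer flavoproteins, 1 was higher and 4 lower, and 3 and 2 with median scaling. ETFB, a subunit of the electron transfer flavoprotein, was the 1 that rose, with 312 to 369 TPM on day 3 and 489 to 518 on day 12.

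The nuclear genes of the respiratory chain also split. Of 45 tested, 15 were higher and 15 lower on day 12 (median -0.03), and 20 and 5 with median scaling. UQCR11, a subunit of complex III, had 109 to 114 TPM on day 3 and 150 to 152 on day 12. UQCRFS1, the iron-sulfur subunit of the same complex, had 30.7 to 33.6 TPM on day 3 and 19.9 to 24.6 on day 12. NDUFB7 and NDUFB10, both of complex I, moved by 0.79 and -0.44. In controls 37 were lower and 1 higher on day 12 (median -0.53). The deprived change on day 12 was above the control change for 37 of the 45 and below it for 0 (23.8% and 13.9% over all genes). With median scaling it was above for 36 and below for 0.

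Plasma proteins of the acute phase rose steadily. Of 14 tested, 9 were higher on day 6, 10 on day 9 and 11 on day 12, with medians of 0.44, 0.70 and 0.74, and 0, 1 and 2 were lower. FGB, the fibrinogen beta chain, had 160, 144 and 143 TPM on day 3, 265, 251 and 246 on day 6, 323, 316 and 327 on day 9, and 415, 422 and 446 on day 12. No day overlapped with another, and FGB averaged 428 ± 16.2 TPM in deprived cells and 213 ± 28.3 TPM in controls on day 12 (SD, n = 3 each). FGA, the alpha chain, had 182 to 208 TPM on day 3 and 476 to 524 on day 12. SERPINA3, an antichymotrypsin, had 483 to 582 TPM on day 3 and 1221 to 1379 on day 12. HAMP, which encodes the iron hormone hepcidin, was 1 of the 2 that fell, with 251 to 267 TPM on day 3, 199 to 236 on day 6, 113 to 133 on day 9 and 97.3 to 121 on day 12. HPX was the other.

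Carrier proteins rose as well but by less than in controls. Of 11 tested, 8 were higher and 2 lower on day 12 (median 0.49), 9 and 0 with median scaling, and the 2 came to 1 without any single day 3 library and without day 12 replicate 1 or 3. AHSG, fetuin-A, had 621 to 634 TPM on day 3, 871 to 931 on day 6, 1089 to 1134 on day 9 and 1250 to 1303 on day 12. RBP4, the retinol carrier, had 378 to 428 TPM on day 3 and 781 to 826 on day 12, most of it gained by day 6 (664 to 688 TPM). AMBP and SERPINA7 rose by 0.93 and 0.49 on the log2 scale. ALB, albumin itself, named after its values were seen, had 2839, 2701 and 2636 TPM on day 3 and 3198, 3048 and 3318 on day 12. It averaged 3188 ± 135 TPM in deprived cells and 15931 ± 610 TPM in controls on day 12 (SD, n = 3 each). The deprived change was below the control change for 7 of the 11 and above it for 2 (13.9% and 23.8% over all genes). Median scaling gave the same counts for this list. The summed hepatocyte markers came to 8674.67 to 9003.23 TPM in deprived cells and 29607.57 to 31164.84 TPM in controls on day 12, against 6360.67 to 6680.87 and 7247.91 to 7349.89 TPM on day 3. Fewer cells of a state and less RNA per cell cannot be told apart in these bulk libraries.

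Apolipoproteins divided evenly, 6 of 15 higher and 6 lower on day 12, and 4 and 7 with quantile normalization. APOM, a carrier of sphingolipid, had 58.2 to 69.0 TPM on day 3, 110 to 116 on day 6 and 153 to 167 on day 12. APOC3 and APOE rose by 0.97 and 0.86 on the log2 scale. LCAT, which esterifies cholesterol in plasma, had 10.4 to 12.6 TPM on day 3 and 6.18 to 7.78 on day 12. Of 18 coagulation and complement genes, 11 were higher and 4 lower, and 13 and 2 with median scaling. F7 and SERPINC1, coagulation factor VII and antithrombin, rose by 1.09 and 1.05, mostly by day 6, and SERPIND1, heparin cofactor II, by 0.81. C5 had 17.9 to 19.3 TPM on day 3 and 13.3 to 14.8 on day 12, a fall that median scaling did not call (adjusted p = 0.136). Among 16 liver transcription factors 6 were higher and 4 lower, and 7 and 2 with median scaling; the 4 came to 2 without day 3 replicate 2 or 3 and without day 12 replicate 2. ONECUT1 had 9.94 to 12.2 TPM on day 3 and 23.1 to 23.4 on day 12. FOXA1 had 30.2 to 30.7 TPM on day 3, 26.9 to 30.7 on day 6, 22.7 to 27.6 on day 9 and 17.2 to 17.5 on day 12. NR1H4, the bile acid receptor, and CEBPB rose by 0.75 and 0.74.

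Metallothioneins, small proteins that bind zinc and copper, took different courses although their genes lie together on chromosome 16. MT1F had 367, 361 and 421 TPM on day 3, 341, 278 and 288 on day 6, 191, 140 and 187 on day 9, and 84.3, 69.8 and 81.2 on day 12. Each day lay below the one before, and the log2 fold change on day 12 was -2.28 ± 0.22 (SE; limma, adjusted p = 1.9e-07). MT1G had 1335 to 1544 TPM on day 3, 1186 to 1467 on day 6, 573 to 706 on day 9 and 328 to 356 on day 12, so days 3 and 6 overlapped. MT1X had 178 to 198 TPM on day 3 and 67.3 to 75.2 on day 12, and MT1M fell by 1.98 ± 0.39 on the log2 scale (SE; limma, adjusted p = 4.2e-04). MT2A had 5696, 5497 and 6357 TPM on day 3, 4529, 4153 and 4281 on day 6, 4113, 4178 and 4658 on day 9, and 4882, 4895 and 4945 on day 12. It was lower on days 6 and 9 (limma, adjusted p = 0.027 and 0.0086); the day 6 call was lost without day 3 replicate 1 or 3 and without day 6 replicate 2 or 3 (limma, adjusted p = 0.0573 to 0.101). It was not called on day 12 (-0.25 ± 0.13 (SE), adjusted p = 0.11), where quantile normalization did call it lower (-0.50, adjusted p = 0.0022). MT1A had 48.5 to 58.5 TPM on day 3 and 61.1 to 72.8 on day 12. Its rise was called by limma (adjusted p = 0.038) and lost without day 3 replicate 1 or 2 and without day 12 replicate 2 or 3 (adjusted p = 0.061 to 0.155). In the whole list of 14 metallothionein and zinc genes, 3 were higher and 7 lower, and 6 and 6 with median scaling. These copies are similar in sequence and may share reads.

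**Figure D4:**
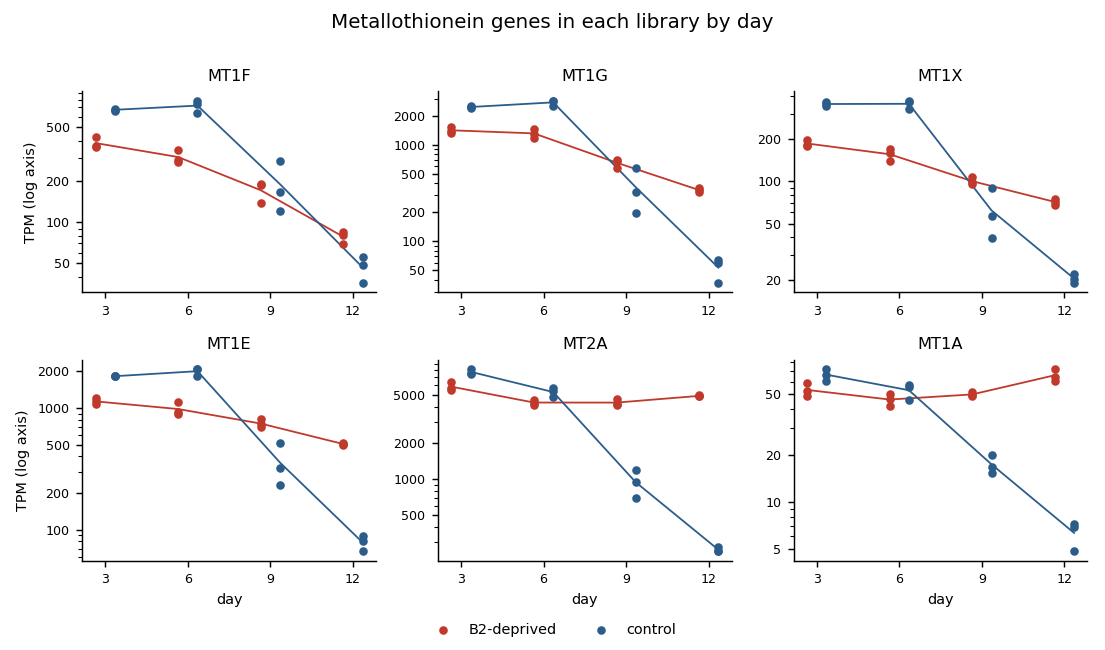
TPM of 6 metallothionein genes in each of the 24 libraries (log axis) on days 3, 6, 9 and 12, deprived libraries in red, set slightly left, and controls in blue, with lines through the group means (n = 3 each). In deprived libraries MT1F, MT1G, MT1X and MT1E fall with time, whereas on day 12 MT2A had 4882 to 4945 TPM and MT1A had 61.1 to 72.8 TPM, nearer to day 3. All 6 are lowest in the day 12 controls.

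The promoters of MT1X, called lower on day 12, and MT2A, not called on that day, are shown together, each for the 250 bases before the start site (RefSeq, GRCh38.p14, plus strand, 5′ to 3′). MT1X spans chr16:56682220-56682469 and MT2A spans chr16:56608334-56608583. Capitals mark matches on either strand to the metal response core, TGCACNC or TGCGCNC, 4 in MT1X and 7 in MT2A.
MT1X: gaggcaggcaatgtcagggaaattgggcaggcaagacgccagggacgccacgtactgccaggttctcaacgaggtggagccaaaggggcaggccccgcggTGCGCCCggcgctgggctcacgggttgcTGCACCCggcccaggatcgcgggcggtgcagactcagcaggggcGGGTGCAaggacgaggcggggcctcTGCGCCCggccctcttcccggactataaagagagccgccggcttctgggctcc
MT2A: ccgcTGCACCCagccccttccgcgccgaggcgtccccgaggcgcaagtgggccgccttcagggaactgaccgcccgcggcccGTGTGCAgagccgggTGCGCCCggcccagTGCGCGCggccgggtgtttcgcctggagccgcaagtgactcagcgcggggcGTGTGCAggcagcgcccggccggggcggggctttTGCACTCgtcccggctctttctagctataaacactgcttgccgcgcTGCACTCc
The core was in 4 of the 7 listed metallothionein and zinc genes with a promoter in the table and in 24.8% of 35116 promoters. In MT2A 1 of the 7 matches overlaps an AhR core, and in MT1X none does. A match describes these letters and was not tested as a site.

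Ribosomal protein genes rose from day 6 on. Of 68 tested, 37 were higher on day 6, 47 on day 9 and 53 on day 12, with medians of 0.21, 0.34 and 0.49, and 0, 1 and 1 were lower. Scaling left 58 higher and 0 lower (median scaling) or 51 and 3 (quantile). RPL23 had 870 to 884 TPM on day 3, 1120 to 1195 on day 6, 1364 to 1537 on day 9 and 1733 to 1815 on day 12. RPS18 had 71.2 to 82.8 TPM on day 3 and 158 to 162 on day 12, and RPL12 rose by 0.92 ± 0.09 on the log2 scale (SE; limma, adjusted p = 7.7e-09). The member that fell was RPL13A, and without day 3 replicate 1 there were 2. Set against controls, the deprived change on day 12 was above for 5 members and below for 14 (23.8% and 13.9% over all genes).

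Of the proteasome subunits, 17 of 30 were lower and 3 higher on day 12 (median -0.17), and 8 and 7 with median scaling. The 3 came to 1 without day 3 replicate 1 or day 12 replicate 1 or 3. PSMC3, an ATPase of the cap, had 26.4 to 28.5 TPM on day 3 and 15.2 to 17.7 on day 12. Of 28 lysosome genes, 11 were lower and 4 higher, shares near those of all genes (35.3% lower and 14.4% higher). With median scaling 9 were lower and 8 higher, against 2667 lower and 3169 higher of all 12488 genes. CTSD, the protease cathepsin D, had 53.8 to 54.8 TPM on day 3, 74.1 to 76.0 on day 6, 84.8 to 100.4 on day 9 and 100.4 to 112 on day 12. NEU1, a sialidase, went the other way, with 214 to 219 TPM on day 3 and 105 to 113 on day 12. CTSL, another cathepsin, and GLA, a galactosidase, fell by 0.86 and 1.41 on the log2 scale.

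Genes of the hypoxia response and glycolysis rose late, 9 of 21 on day 12 with 1 lower (median 0.18), and 15 and 1 with median scaling. NDRG1 had 35.3 to 43.6 TPM on day 3, 39.6 to 50.6 on day 6, 51.8 to 56.0 on day 9 and 81.1 to 92.6 on day 12. VEGFA, the angiogenic growth factor, rose early instead, with 22.8 to 26.7 TPM on day 3, 34.3 to 35.5 on day 6 and 38.4 to 41.6 on day 12. MXI1 and BNIP3, a MYC antagonist and a mitophagy receptor, rose by 1.08 and 0.70. The deprived change was above the control change for 3 members and below it for 12 (23.8% and 13.9% over all genes).

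Several other named genes changed individually. CTGF, a matrix protein and target of YAP, had 27.6 to 28.9 TPM on day 3 and 86.1 to 104 on day 12. IGF2, an imprinted growth factor, had 407 to 440 TPM on day 3, 657 to 723 on day 6, 828 to 894 on day 9 and 1133 to 1166 on day 12. DLK1, an imprinted surface protein of immature liver cells, fell at each interval, with 49.3 to 51.1 TPM on day 3, 35.9 to 40.3 on day 6, 21.7 to 22.3 on day 9 and 15.8 to 16.6 on day 12. PEG10, another imprinted gene, averaged 70.3 ± 1.59 TPM on day 12, against 217 ± 6.89 TPM on day 3 (SD, n = 3 each). GPHA2, a glycoprotein hormone subunit, was not called on day 6 and fell to 3.18 to 4.05 TPM on day 12, against 19.8 to 25.3 TPM on day 3. NFKBIA, the inhibitor of NF-kB, fell by 0.79 ± 0.07 (SE; limma, adjusted p = 1.6e-09), and ICAM1, an adhesion molecule, rose by 0.63.

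Some courses turned. MNX1, a homeobox factor, had 11.1, 12.6 and 11.5 TPM on day 3, 18.4, 22.3 and 20.2 on day 6, 17.5, 19.1 and 15.5 on day 9, and 13.5, 12.6 and 13.4 on day 12. DHRS11, a short-chain dehydrogenase, rose and returned likewise, with 9.16 to 12.3 TPM on day 3, 14.8 to 16.2 on day 6 and 10.0 to 11.0 on day 12. ODAM, a secreted protein of enamel, had 26.6 to 32.3 TPM on day 3, 12.9 to 20.1 on day 6, 18.0 to 25.0 on day 9 and 28.1 to 30.2 on day 12. DSTN, which severs actin filaments, and IL11, a cytokine, dipped on day 6 as well, to 96.4 to 104 and 5.33 to 7.35 TPM, against 148 to 171 and 8.81 to 10.3 TPM on day 3, and were back at 145 to 149 and 9.81 to 10.8 TPM on day 12. The early and late changes share no library. Over all genes, 3.18% were higher and 4.44% lower on day 12 than on day 9. Of the 664 genes higher on day 6 than day 3, 110 (16.6%) were also higher on day 12 than day 9, which is 27.7% of those 397, and 24 (3.61%) were lower. Of the 1049 lower on day 6, 128 (12.2%) were also lower at the late step, 23.1% of those 554, and 23 (2.19%) were higher.

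The other gene lists had members moving both ways or few calls. Of 22 iron and haem genes, 6 were higher and 7 lower on day 12, and 8 and 6 with median scaling. Of 20 aldo-keto reductases and glutathione transferases, 5 were higher and 9 lower, but 7 and 4 with median scaling. Among 24 interferon-stimulated genes 9 were lower and 3 higher, shares near the 35.3% and 14.4% of all genes. With median scaling 5 were lower and 5 higher, and the 3 came to 1 without day 3 replicate 1. Of 10 genes of bile acid synthesis and transport, 2 were higher and 2 lower under either scaling. Of 7 urea cycle genes, 1 was higher and 3 lower, but 3 and 0 with median scaling.

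Several entries with extreme fold changes were small nucleolar RNAs, microRNA entries or other small RNAs of 80 to 188 bases, where few reads make a TPM. SNORA79 fell from day 3 to day 12 on 62, 55 and 44 reads on day 3, 6, 13 and 9 on day 6, 4, 6 and 9 on day 9, and 1, 5 and 2 on day 12. SNORD116-29 rose on 4, 1 and 1 reads on day 3 and 27, 35 and 29 on day 12, and SNORD76 on 2, 5 and 0 and on 25, 21 and 12. The call for SCARNA18 on day 12 was lost without day 3 replicate 1 or 3 or day 12 replicate 2 (limma, adjusted p = 0.053 to 0.065), and that for GPC3-AS1 without day 3 replicate 3 or day 12 replicate 2 (limma, adjusted p = 0.064 and 0.052).

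Much of the course was shared with control cells, but not all. Across the 12488 genes the log2 changes from day 3 to day 12 in deprived and control cells correlated at a Pearson r of 0.659 and a Spearman rho of 0.619, a description across genes, which are not independent replicates. Of 480 genes called and at least doubled in controls (3.84% of all), 312 (65.0%) were called higher in deprived cells and 104 (21.7%, or 53.9% of the deprived list of 193) at least doubled. Their median change was 0.56 in deprived cells and 1.43 in controls. Over all genes, deprived cells had 14.4% called higher and 35.3% lower, with 1.55% at least doubled and 3.52% at least halved. Of 1178 genes called and at least halved in controls (9.43% of all), 966 (82.0%) were lower in deprived cells and 365 (31.0%, or 83.0% of the deprived list of 440) at least halved, with medians of -0.73 and -1.32.

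Tested as a difference of changes, limma called the deprived course above the control course for 718 genes and below it for 563 on day 6 (5.75% and 4.51%), for 2265 and 1604 on day 9 (18.1% and 12.8%), and for 2972 and 1735 on day 12 (23.8% and 13.9%). For day 12, quantile normalization gave 2378 above and 2282 below, median scaling 2522 and 2107, and voom 4391 and 1329. For day 9, quantile normalization gave 1872 above and 1984 below, median scaling 2043 and 1822, and voom 3528 and 1158. For day 6, voom gave 1024 above and 587 below.

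**Figure D5:**
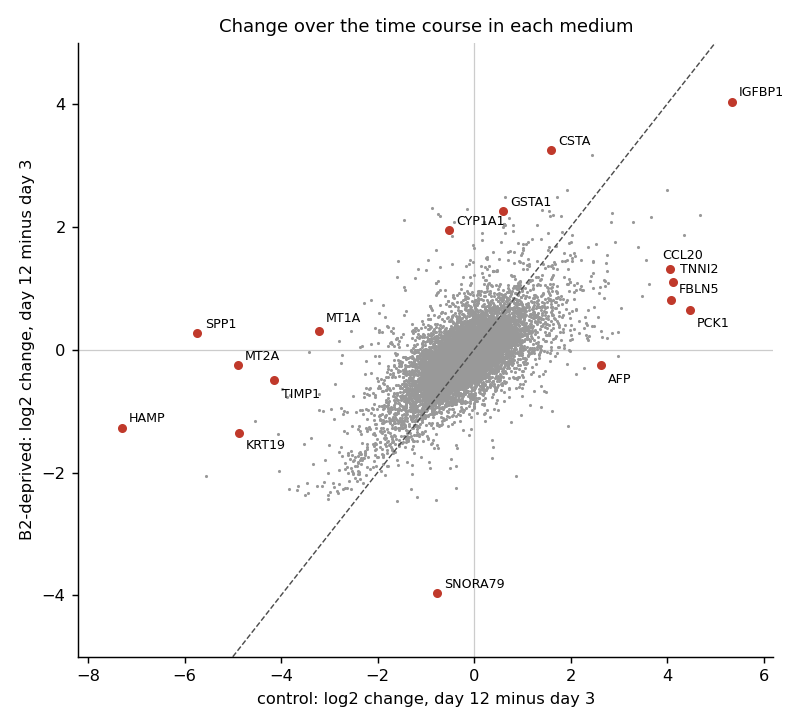
Log2 fold change from day 3 to day 12 of each of the 12488 genes tested, in deprived cells (y axis) against controls (x axis), with the dashed line at equal change and 16 named genes in red. HAMP, SPP1, KRT19, MT2A, TIMP1 and MT1A lie far left, falling by much more in controls, and PCK1, FBLN5, TNNI2, CCL20 and AFP lie far right. SNORA79 rests on few reads.

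The largest differences above the control course were in genes that fell steeply in controls and less, or not at all, in deprived cells. SPP1, osteopontin, had 832, 789 and 755 TPM on day 3 and 954, 937 and 975 on day 12 in deprived cells, against 557, 541 and 529 TPM on day 3 and 7.83, 9.10 and 11.0 on day 12 in controls (difference of changes 6.00 ± 0.11 (SE); limma, adjusted p = 1.2e-20). Within deprived cells its small rise was not called with quantile normalization, which gave the other sign. HAMP came to 97.3, 104 and 121 TPM in deprived cells and 0.996, 1.40 and 0.36 TPM in controls on day 12 (difference of changes 6.03 ± 0.21 (SE); limma, adjusted p = 3.0e-14). KRT19, a keratin of bile duct and progenitor cells, fell to 58.1 to 63.5 TPM in deprived cells and to 3.96 to 5.03 TPM in controls, against day 3 levels of 154 to 161 and 150 to 159 TPM. TIMP1, an inhibitor of matrix proteases, had 59.1 to 64.1 TPM in deprived cells and 2.48 to 3.15 TPM in controls on day 12. MT2A had 4882 to 4945 TPM in deprived cells and 251 to 275 TPM in controls on day 12, and MT1A had 61.1 to 72.8 and 4.79 to 7.21 TPM.

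On the other side stood genes that controls gained. PCK1, the entry enzyme of gluconeogenesis, had 0.968 to 1.32 TPM in deprived cells and 33.2 to 37.7 TPM in controls on day 12 (difference of changes -3.83 ± 0.17 (SE); limma, adjusted p = 8.7e-14). AFP, the fetal albumin relative, had 545 to 600 TPM in deprived cells and 5115 to 5560 TPM in controls on day 12, against 657 to 684 and 832 to 891 TPM on day 3. CCL20, a chemokine, rose in both, to 97.3 to 119 TPM in deprived cells and to 540 to 578 TPM in controls. FBLN5, a fibulin of elastic fibres, and TNNI2, a troponin, reached 0.774 to 0.960 and 2.81 to 4.73 TPM in deprived cells, against 16.7 to 19.5 and 18.8 to 30.0 TPM in controls. Summed cholangiocyte markers, of which KRT19 is 1, came to 299.22 to 303.09 TPM in deprived cells and 241.06 to 254.95 TPM in controls on day 12, and their part in these results was not tested. Over all genes 23.8% were above the control course and 13.9% below it on day 12. By list, 10 of 14 acute phase genes, 9 of 14 metallothionein and zinc genes and 25 of 30 proteasome genes had a deprived change above the control change, with 4, 1 and 0 below. The other way, 11 of 15 apolipoprotein genes, 8 of 18 coagulation and complement genes and 6 of 16 liver transcription factors had a deprived change below it, with 3, 1 and 1 above. Of 10 bile acid genes 7 were below.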

How the data were processed

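The authors deposited TPM values with 1 transcript and its length per gene. The headers name HOMER's command, and the submitters' processing notes also list STAR, Bowtie2, hg38 and mm10, without saying what each was used for. Libraries came from a QuantSeq 3′ kit, per the labels' protocols, so division by transcript length distorts levels between genes. Each gene's length is the same in every library. The scaling to a fixed total uses the length-divided values, however, so it can shift genes between libraries. Voom, which uses reads without that division and also weights them, called 1897 genes higher and 2993 lower on day 9 than on day 3. The main fit called 1164 and 4128, and the cause of the gap was not tested. All 24 libraries share 1 run and date in the headers. The listed genes of a deprived library sum to 359500 to 371249 TPM.

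Genes with at least 1 TPM in 3 of the 24 libraries (12488) were fitted with limma 3.58.1 (R 4.3.3) on log2(TPM + 1), as 8 groups sharing 1 estimate of the spread, with trend and robust eBayes. Tests were two-sided, with Benjamini-Hochberg adjustment within each contrast and a threshold of 0.05. Each fold change is a difference of log2(TPM + 1) values, which understates the change of low genes. A difference of changes is the deprived change from day 3 minus the control change. Comparisons with day 3 share its 3 libraries. The fit was tested on simulated data. Reads were recovered from TPM times length, and 100% of low values were whole (within 0.1, for up to 20 reads and 3000 bases). Replicates of the deprived groups differed by more than sampling noise (chi-square per gene of at least 2.55). No label says that replicates were separate cultures, so the p-values cover only the spread among these libraries, which could be technical.

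Named genes were those with the largest called changes and at least 10 TPM: 12 each way at day 12, 5 at days 6 and 9, 4 between adjacent days and 6 for the difference from controls. To these came up to 4 per gene list, 4 turned courses each way, and AHR, CYP1A1, TIPARP, NQO1, RFK, FLAD1, SLC52A2 and SLC52A3. The members, the gene lists and this rule were chosen with earlier results of these data known. Promoters are from RefSeq. Alternatives were other scalings, pseudocounts and filters, voom, a replicate block, the deprived libraries alone and leaving out each library. Some named genes are not reported here.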

Additional observations from a re-analysis of the deposited data

Results flagged for a closer look

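These genes changed differently from day 3 to day 12 in deprived cells than in controls, by limma's test of the difference of changes (log2, deprived minus control), each with an adjusted p under the threshold. CYP1A1, GSTA2, FGB, CPT1A, FDPS and TK1 were picked by hand. The others, 6 each way, were taken as the largest called differences on this same test. A gene picked by hand was listed only if it passed the test. For every gene listed here, passing was therefore fixed in advance. Deprived cells ended above the controls' course for HAMP (6.03), SPP1 (6.00), MT2A (4.65), TIMP1 (3.65), MT1A (3.53), KRT19 (3.53), GSTA2 (2.89), CYP1A1 (2.45), CPT1A (1.87), TK1 (1.40) and FGB (1.26). They ended below it for PCK1 (-3.83), FBLN5 (-3.28), SNORA79 (-3.19), TNNI2 (-3.01), AFP (-2.88), CCL20 (-2.75) and FDPS (-1.28). With 3 libraries per group, single libraries were not tested for standing apart.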

How the results depend on the processing

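Total counts of genes called kept within 1.5 times of the reported total under every alternative run, with 1 exception, the step from day 9 to day 12. The higher and lower calls moved further: with median scaling, 1036 were higher on day 6, 2479 were higher and 2105 lower on day 9, and 1264 were lower from day 6 to day 9. The total of 951 for day 9 to day 12 became 1474 with voom on recovered reads and ranged from 558 to 964 over the fits that leave out 1 deprived library. The other leave-one-out ranges were 1167 to 1710 at day 6, 4490 to 5333 at day 9, 5504 to 6205 at day 12 and 2355 to 3196 from day 6 to day 9, and 986 to 1353, 3468 to 3955 and 4271 to 4780 for the differences from controls at days 6, 9 and 12. Of 12666 values of named genes under alternatives, 12328 kept their status as called or not called, 248 lost the call and 89 gained it. In 1 the sign reversed with a call in the main fit or the alternative. That was SPP1 at day 12 in deprived cells, at -0.048 with quantile normalization (limma, adjusted p = 0.666). Sign changes of values called in neither fit were counted among the 12328. The causes were not tested. Same-numbered deprived libraries correlated little, from -0.050 to 0.106 over 18 pairs, but 7 of 12 libraries correlated best with their own number. Whether replicate numbers pair the samples weakly was therefore not settled. A replicate block gave 1658, 5264 and 6172 genes at days 6, 9 and 12. With few reads, small RNA entries are the least certain.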
